A study of Mus musculus with 6 samples.

Results

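The genes described here are 10 widely used readouts of the transcription factor NF-kB, followed in mouse pancreatic islets with and without a conditional knockout of Bcas2: 5 genes of feedback, NF-kB composition and survival (Nfkbia, Tnfaip3, Nfkbiz, Nfkb2 and Birc3) and 5 chemokine genes (Cxcl1, Cxcl2, Cxcl10, Cxcl16 and Ccl2). All 10 were found by symbol among the 54532 genes of the deposited table. They were chosen from the comparison of these same libraries, so their differences between the groups are a description with no test. Islet RNA, labelled as that of beta cells, was extracted with Trizol and sequenced in 3 control libraries (genotype wt) and 3 libraries of the genotype labelled Cko, called the knockout here and Bcas2 cKO in the plots, while the design text speaks of a knockdown. BCAS2 belongs to the Prp19 complex of the spliceosome. The sources used here do not give the Cre driver, the deleted part of the gene, the strain, the age of the mice or any pooling of animals, and name no treatment. Nothing in the labels ties the libraries to separate animals, so errors and p-values reflect only how far these libraries spread, and that spread may be technical.

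In resting cells NF-kB dimers are held in the cytoplasm by inhibitor proteins of the IkB family. Signals from TNF, interleukin-1 or Toll-like receptors activate a kinase complex that marks the inhibitors for destruction, and the freed dimers enter the nucleus and switch on their targets. Among the early targets are the pathway's own brakes, so that a burst of NF-kB activity raises the transcripts of its inhibitors. Chemokines, small secreted proteins that attract leukocytes, are another class of target, and beta cells, macrophages, endothelial cells and fibroblasts of the islet can all make them under inflammatory cytokines.

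The promoters are shown first, because NF-kB binding letters are what these genes are known to share. The genes were listed as known NF-kB readouts, so a high share of these letters is built into the choice and is no independent result. RefSeq promoter sequences (GRCm38.p6, from 250 bases before to 50 bases after each start) were found for 7 of the 10 genes; Nfkbiz, Cxcl16 and Ccl2 had no entry. The NF-kB consensus was searched on both strands, and overlapping matches were joined. It was present in at least 1 promoter of 6 of the 7 genes, all but Birc3. Counted in the same way by gene, 5.14% of all 27025 genes with a promoter entry held it. Of the 9499 genes tested for expression that had an entry, 6.10% held it. In the test over all genes, 598 of the genes that rose in the knockout had an entry, these 10 left out, and 7.53% of them held it. Counted by promoter, 8 of the 10 promoters of these genes held it, against 4.51% of all 32851. Where a gene had several promoters, the one nearest the 5′ end of the deposited gene is shown. Each stretch is printed 5′ to 3′ on the gene's own strand. For Nfkbia, Cxcl1, Cxcl2 and Cxcl10 it lies before the start and ends before any exon annotated in GENCODE M21. For Nfkb2 and Tnfaip3 only 30 bases around each match are printed, without that limit. The second stretch of each runs past the RefSeq start, and both stretches of Tnfaip3 lie within the span of the deposited gene. Capitals mark the NF-kB consensus.
Nfkbia (chr12:55492648-55492867, minus strand): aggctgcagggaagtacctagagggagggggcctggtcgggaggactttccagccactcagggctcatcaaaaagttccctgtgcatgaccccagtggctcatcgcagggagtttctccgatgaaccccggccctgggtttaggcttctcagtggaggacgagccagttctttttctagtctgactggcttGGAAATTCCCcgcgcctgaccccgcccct
Cxcl1 (chr5:90891025-90891240, plus strand): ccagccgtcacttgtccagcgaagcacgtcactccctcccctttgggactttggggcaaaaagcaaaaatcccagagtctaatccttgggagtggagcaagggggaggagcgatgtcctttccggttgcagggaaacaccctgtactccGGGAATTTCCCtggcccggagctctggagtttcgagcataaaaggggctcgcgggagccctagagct
Cxcl2 (chr5:90903679-90903870, plus strand): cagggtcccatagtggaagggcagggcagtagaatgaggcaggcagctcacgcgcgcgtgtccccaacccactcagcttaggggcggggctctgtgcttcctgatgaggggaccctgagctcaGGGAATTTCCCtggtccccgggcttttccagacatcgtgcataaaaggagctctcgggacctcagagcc
Cxcl10 (chr5:92348890-92349109, minus strand): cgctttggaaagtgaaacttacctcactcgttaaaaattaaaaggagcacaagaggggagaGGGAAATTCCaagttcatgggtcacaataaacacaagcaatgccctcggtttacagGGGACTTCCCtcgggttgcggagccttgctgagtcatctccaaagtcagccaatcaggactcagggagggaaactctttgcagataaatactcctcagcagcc
Nfkb2 (chr19:46304689-46304718, plus strand): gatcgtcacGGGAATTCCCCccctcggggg
Nfkb2 (chr19:46304716-46304745, plus strand): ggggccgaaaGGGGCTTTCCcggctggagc
Tnfaip3 (chr10:19015516-19015545, minus strand): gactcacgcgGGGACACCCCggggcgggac
Tnfaip3 (chr10:19015403-19015432, minus strand): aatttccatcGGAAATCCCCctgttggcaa

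Cxcl1 and Cxcl2 carried the same 11 letters, a match on both strands, at -71 to -61 and at -97 to -87 from the RefSeq start. Cxcl10 held a match at -159 to -150 and another at -103 to -94. It also held an AP-1 consensus (TGANTCA, searched on both strands) at -74 to -68 and an interferon-stimulated response element at -213 to -204. Tnfaip3 had NF-kB matches at -125 to -116 and -12 to -3 and an AP-1 match at -136 to -130. Nfkb2 had NF-kB matches at -39 to -29 and -11 to -2, and Nfkbia had 1 match at -29 to -20. Counted by promoter, 3 of the 10 held the AP-1 letters, the third being another promoter of Nfkb2 that is not shown, against 7.81% of all promoters. The interferon element was in 1 of the 10, against 3.44% of all promoters. A match describes letters in this window and does not show that a factor binds there in these cells.

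**Figure D1:**
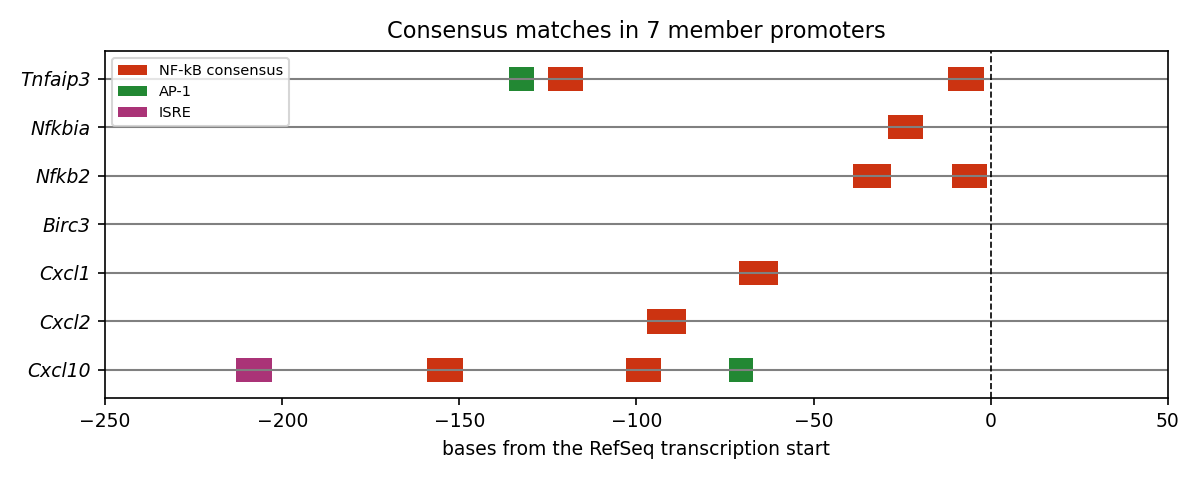
Consensus matches along 1 RefSeq promoter of each of 7 genes, in bases from the transcription start (dashed line), with NF-kB matches in red, AP-1 in green and the interferon element (ISRE) in purple. The NF-kB matches lie between -159 and -2, and Birc3 shows none.

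The libraries were of similar depth, with 15170439 to 15594871 reads on genes in control and 16351800 to 16904326 in the knockout, recovered from the deposited FPKM. These are reads scaled by gene length and by a depth factor, which was 0.89 to 1.11 times the reads on genes of each library. Bcas2 itself was 10.3, 15.04 and 11.2 FPKM in control libraries 1, 3 and 4, against 8.76, 8.40 and 9.14 FPKM in knockout libraries 3, 4 and 5. It was lower in every knockout library but did not pass the test over all genes (log2 change of -0.42 with an SE of 0.13, adjusted p = 0.083 by limma). The labels number the knockout samples 1, 3 and 4, so the column numbered 5 has no sample of its own and was used as a member of its group. Values below are always given in this order of libraries.

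All 10 genes had a higher mean in the knockout, and for 9 of them every knockout library lay above every control library. Among the 13723 genes tested 16.8% were higher in this way, and nothing is read from that difference because this comparison chose the genes. Ratios of the group means ran from 1.39 for Cxcl16 to 7.21 for Cxcl1, with a median of 3.13. On the log2(FPKM + 1) scale, where changes of weakly expressed genes appear too small, the median difference was 1.50, and over all genes tested it was -0.03. A mean of 1 FPKM over the 6 libraries was needed for testing. Of the 10 genes 9 reached it, Cxcl1, Cxcl2 and Cxcl10 only through their knockout values, and Ccl2 did not. In bulk RNA more cells that make a transcript and more RNA per cell cannot be told apart.

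**Figure D2:**
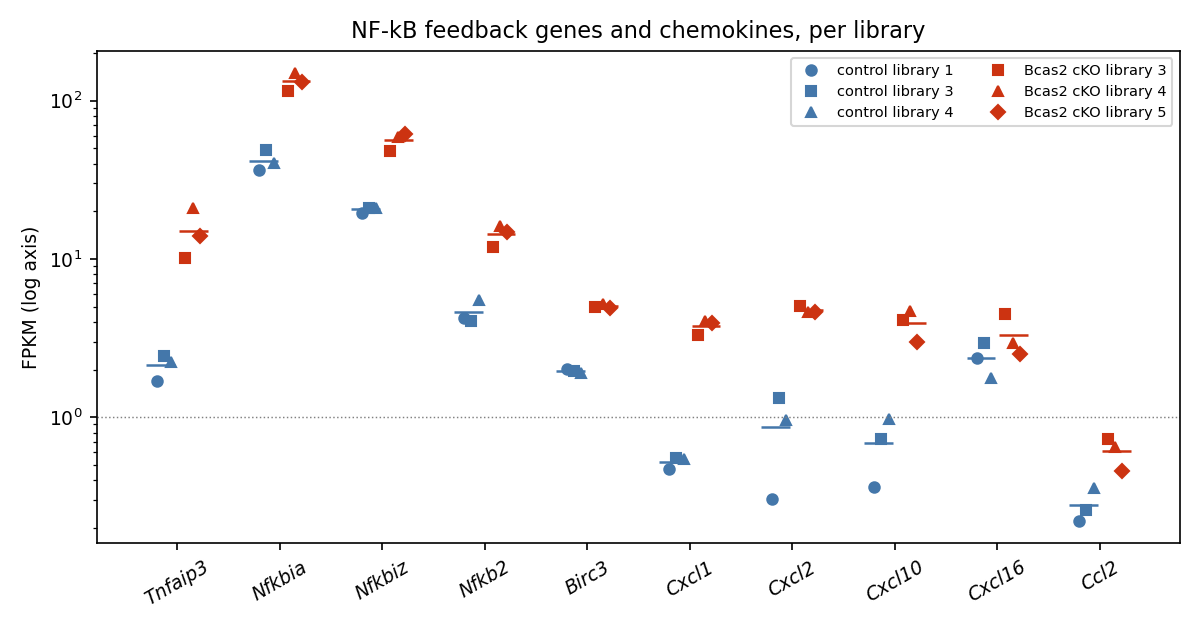
FPKM of each gene in each library on a log axis, with control in blue, knockout in red, a symbol for each library number and a line at each group mean; the dotted line marks 1 FPKM. Every gene but Cxcl16 shows 3 red points above 3 blue ones.

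Nfkbia (ENSMUSG00000021025, chromosome 12, 55489410 to 55492647, minus strand, GRCm38) encodes IkB-alpha, the inhibitor that NF-kB rapidly makes anew. It was the most abundant of the 10 genes in both groups. Control libraries held 36.6, 48.5 and 40.5 FPKM and knockout libraries 116, 149 and 132 FPKM. The lowest knockout library was 2.39 times the highest control library. The means were 41.9 ± 6.06 and 132 ± 16.8 FPKM (SD, n = 3 each), a ratio of 3.16 and a log2 difference of 1.64 (SE 0.16).

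Tnfaip3 (ENSMUSG00000019850, chromosome 10, 19000910 to 19015657, minus strand) encodes A20, a ubiquitin-editing enzyme that shuts off signalling from TNF and Toll-like receptors to NF-kB. It held 1.70, 2.45 and 2.23 FPKM in control against 10.1, 20.99 and 13.96 FPKM in the knockout. The groups were far apart, and the knockout libraries also differed among themselves by 2.08 times, the widest spread of the 10 genes in that group. The means were 2.13 ± 0.385 and 15.02 ± 5.52 FPKM (SD, n = 3 each). The ratio was 7.06 and the log2 difference 2.31 (SE 0.30), the largest of the 10 on this scale.

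Nfkbiz (ENSMUSG00000035356, chromosome 16, 55811375 to 55838899, minus strand) encodes IkB-zeta, a nuclear member of the inhibitor family that acts as a cofactor for a subset of NF-kB targets. Its control libraries lay close together, at 19.6, 21.02 and 21.1 FPKM, below the knockout libraries at 48.3, 58.9 and 61.6 FPKM. It ranked after Nfkbia and before every other gene of the 10 in both groups, with no overlap with either neighbour in that order. The means of 20.6 ± 0.823 and 56.3 ± 7.04 FPKM (SD, n = 3 each) gave a ratio of 2.74 and a log2 difference of 1.40 (SE 0.11).

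Nfkb2 (ENSMUSG00000025225, chromosome 19, 46304737 to 46312090, plus strand) encodes p100, both an inhibitor and the precursor of p52, the DNA-binding subunit of the non-canonical pathway. It held 4.24, 4.08 and 5.53 FPKM in control against 11.98, 16.2 and 14.7 FPKM in the knockout, where the lowest library was 2.17 times the highest control library. The means were 4.61 ± 0.795 and 14.3 ± 2.14 FPKM (SD, n = 3 each), with a ratio of 3.10 and a log2 difference of 1.45 (SE 0.17). The gene overlaps Psd on the opposite strand, and since the strand setting of the counting is unknown, their reads could be shared. Psd was 17.5 ± 1.42 and 18.3 ± 2.19 FPKM (log2 change of 0.05 with an SE of 0.11, adjusted p = 0.77 by limma). The same limit holds for Cxcl10, which overlaps Art3 (means of 0.633 and 0.929 FPKM in control and knockout) on the opposite strand. It also holds for Cxcl16, which overlaps Zmynd15 (0.940 and 1.19 FPKM), and for Ccl2, which overlaps Gm17268 (0 FPKM in both groups).

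Birc3 (ENSMUSG00000032000, chromosome 9, 7848699 to 7873186, minus strand) encodes cIAP2, a ubiquitin ligase at TNF receptors that limits cell death. It varied less within each group than any other of the 10 genes. Control libraries held 2.01, 1.95 and 1.90 FPKM, and knockout libraries held 4.97, 5.20 and 4.93 FPKM. The means were 1.96 ± 0.0557 and 5.03 ± 0.142 FPKM (SD, n = 3 each), a ratio of 2.57 and a log2 difference of 1.03 (SE 0.02). Its paralog Birc2, which encodes cIAP1 and lies 11635 bases away, was 16.1 ± 1.17 and 18.2 ± 1.35 FPKM, short of the threshold (log2 change of 0.17 with an SE of 0.09, adjusted p = 0.24 by limma).

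Cxcl1 (ENSMUSG00000029380, chromosome 5, 90891241 to 90893115, plus strand) encodes an attractant of neutrophils and lies beside Cxcl2. It held 0.471, 0.553 and 0.545 FPKM in control, from 14, 14 and 15 reads, and 3.29, 4.06 and 3.96 FPKM in the knockout, from 112, 134 and 128 reads. Both groups were narrow, and the lowest knockout library was 5.95 times the highest control library, the widest gap among the 10 genes. The means were 0.523 ± 0.0453 and 3.77 ± 0.417 FPKM (SD, n = 3 each), a ratio of 7.21. The log2 difference was 1.64 (SE 0.08), and 2.63 with a pseudocount of 0.1.

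Cxcl2 (ENSMUSG00000058427, chromosome 5, 90903871 to 90905938, plus strand), another attractant of neutrophils, held 0.305, 1.33 and 0.955 FPKM in control, from 10, 37 and 29 reads. In the knockout it held 5.06, 4.59 and 4.65 FPKM, from 190, 167 and 166 reads. The control libraries differed among themselves by 4.35 times, with library 1 the lowest, and the knockout libraries by 1.10 times. The means were 0.862 ± 0.517 and 4.77 ± 0.258 FPKM (SD, n = 3 each), a ratio of 5.53. The log2 difference was 1.67 (SE 0.25), and 2.52 with a pseudocount of 0.1. The related Cxcl3 and Cxcl5 had at most 1 read in any library.

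Cxcl10 (ENSMUSG00000034855, chromosome 5, 92346638 to 92348889, minus strand) encodes an attractant of activated T cells that answers to interferon as well as to NF-kB. It held 0.364, 0.724 and 0.967 FPKM in control, from 13, 22 and 32 reads, and 4.11, 4.69 and 2.99 FPKM in the knockout, from 168, 186 and 116 reads. Library 1 was again the lowest control library. The means were 0.685 ± 0.304 and 3.93 ± 0.868 FPKM (SD, n = 3 each), a ratio of 5.74. The log2 difference was 1.55 (SE 0.22), and 2.42 with a pseudocount of 0.1. Of its interferon-responsive relatives, Cxcl9 had 16, 3 and 3 reads in control and 49, 17 and 11 in the knockout, with overlap, and Cxcl11 had 0, 0 and 1 against 48, 17 and 12, both too few for testing.

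Cxcl16 (ENSMUSG00000018920, chromosome 11, 70453983 to 70459984, minus strand) encodes a chemokine made as a membrane protein, which also takes up oxidized lipoprotein. It was the only one of the 10 whose groups overlapped. Control libraries held 2.38, 2.94 and 1.78 FPKM and knockout libraries 4.47, 2.93 and 2.49 FPKM, so that only knockout library 3 lay above every control library. The means were 2.37 ± 0.581 and 3.30 ± 1.04 FPKM (SD, n = 3 each), a ratio of 1.39 and a log2 difference of 0.34 (SE 0.24). Without knockout library 3 that difference was 0.15, and without control library 4 it was 0.21.

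Ccl2 (ENSMUSG00000035385, chromosome 11, 82035571 to 82037453, plus strand), the monocyte attractant MCP-1, was the lowest of the 10 genes in both groups. Control libraries held 0.222, 0.260 and 0.359 FPKM, from 4, 4 and 6 reads, and knockout libraries 0.727, 0.649 and 0.459 FPKM, from 15, 13 and 9 reads. The groups did not overlap, but the reads were few. The means were 0.280 ± 0.0708 and 0.611 ± 0.138 FPKM (SD, n = 3 each), a ratio of 2.18. The log2 difference was 0.33 (SE 0.09), and 0.90 with a pseudocount of 0.1. Its neighbour Ccl7 had at most 7 reads in a library. Ccl11, the eosinophil attractant eotaxin, was 1.43 ± 0.664 and 3.84 ± 1.49 FPKM, short of the threshold (log2 change of 0.98 with an SE of 0.27, adjusted p = 0.053 by limma).

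Within a group the genes shared an order of libraries only in part. In the knockout, library 4 was the highest for 6 of the 10 genes (Nfkbia, Tnfaip3, Nfkb2, Birc3, Cxcl1 and Cxcl10), library 3 for Cxcl2, Cxcl16 and Ccl2, and library 5 for Nfkbiz. In control, library 1 was the lowest for 7 of the 10. The order of levels in control was Nfkbia, Nfkbiz, Nfkb2, Cxcl16, Tnfaip3, Birc3, Cxcl2, Cxcl10, Cxcl1 and Ccl2. Neighbours among Cxcl16, Tnfaip3 and Birc3 overlapped, as did neighbours among Cxcl2, Cxcl10 and Cxcl1. In the knockout Tnfaip3 came after Nfkbiz, overlapping Nfkb2, and the run of Birc3, Cxcl2, Cxcl10, Cxcl1 and Cxcl16 overlapped from each gene to the next.

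Gene length bears on the short chemokine genes. For 9 of the 10 genes, Nfkb2 being the exception, the deposited length equals the union of all exons in GENCODE M21. For Cxcl1 (1875 bases), Cxcl2 (2068 bases) and Cxcl10 (2252 bases) it equals the whole span of the gene, because the annotated exons together cover it. Reads from spliced and unspliced RNA of these 3 genes cannot be told apart in the table. The counted length of Nfkbia was 1610 of 3238 bases and that of Birc3 5009 of 24488 bases.

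The rest of the NF-kB pathway was read from 7 lists with 154 genes, of which 82 reached the mean of 1 FPKM. In the limma test over all 13723 genes (Benjamini-Hochberg adjusted p under 0.05), 19 of the 82 rose in the knockout, 2 fell and 61 did not pass. Over all genes 6.97% rose and 7.55% fell. Of the 19, Tnf, Icam1 and Plau reached the minimum only through their knockout values, with control means of 0.835, 0.522 and 0.738 FPKM. The lists were chosen with earlier results of these data known, so nothing is read from the difference between these shares. The median log2 change of the 82 was 0.20. The counts rest in part on single libraries: 9 rose without control library 4, 10 without knockout library 3, and 11 without knockout library 4 or 5. The count of falls was 1 in each fit without 1 of these 4 libraries and in the fit without control library 3. With any mean above 0 admitted, 15 pathway genes rose and 1 fell, where 1.91% of 32845 genes rose and 1.57% fell.

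**Figure D3:**
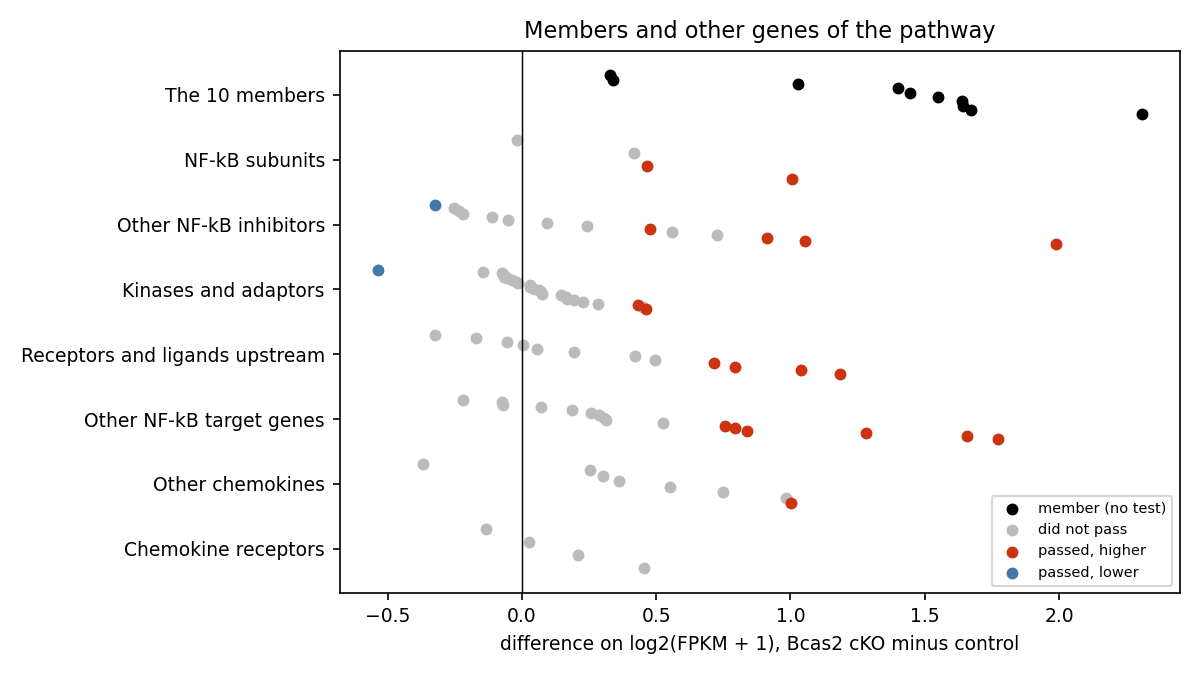
Difference on log2(FPKM + 1), knockout minus control, for the 10 genes (black, no test) and for every tested gene of the 7 lists; red and blue points passed the test over all genes as higher or lower, and grey points did not. The 19 red points are spread over 6 lists, with none among the chemokine receptors, and the 2 blue points are Cyld and Irak1.

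Among the other subunits of NF-kB, 2 of 4 rose and none fell. Relb, the partner of p52, was 2.26, 2.25 and 1.38 FPKM in control against 4.30, 5.48 and 4.92 FPKM in the knockout (log2 change of 1.004 with an SE of 0.15, adjusted p = 0.0087 by limma), with no overlap. Rela, the main activating subunit, rose from 17.4 ± 2.13 to 24.5 ± 3.03 FPKM (log2 change of 0.47 with an SE of 0.12, adjusted p = 0.048 by limma). Neither Nfkb1, the precursor of p50, at 6.61 ± 0.646 and 6.51 ± 0.155 FPKM (adjusted p = 0.91 by limma), nor Rel, at 0.936 ± 0.103 and 1.59 ± 0.178 FPKM (adjusted p = 0.07 by limma), passed. Relb kept its call without each library in turn, and Rela lost it in all 6 of those fits (adjusted p from 0.053 to 0.13).

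Of 14 other tested inhibitors, 4 rose and 1 fell. Zfp36 encodes tristetraprolin, which speeds the decay of cytokine and chemokine mRNA, and rose from 44.4 ± 11.6 to 176 ± 23.4 FPKM (log2 change of 1.99 with an SE of 0.21, adjusted p = 0.003 by limma). Tnip1, a partner of A20, rose from 7.74 ± 0.486 to 17.2 ± 1.40 FPKM (log2 change of 1.05 with an SE of 0.09, adjusted p = 0.0018 by limma). Zc3h12a, the RNase regnase-1, rose from 1.40 ± 0.199 to 3.51 ± 0.197 FPKM (log2 change of 0.91 with an SE of 0.10, adjusted p = 0.0036 by limma). Nfkbib, which encodes IkB-beta, rose from 6.33 ± 0.346 to 9.22 ± 0.978 FPKM (log2 change of 0.48 with an SE of 0.09, adjusted p = 0.02 by limma). The gene that fell was Cyld, a deubiquitinase that restrains NF-kB, named after its values were seen (log2 change of -0.32 with an SE of 0.08, adjusted p = 0.034 by limma). Without a library Cyld lost its call in 5 of 6 fits, all but that without control library 1 (adjusted p up to 0.1), and it lost it with any mean above 0 (0.073). Zfp36, Tnip1 and Zc3h12a stayed called in all 6 fits without a library. Nfkbib lost its call without control library 3 or 4 or knockout library 4 or 5 (adjusted p up to 0.069) and with libraries rescaled without the hormone genes (0.062).

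Of 24 tested kinases and adaptors 2 rose, 1 fell and 21 did not pass, with a median log2 change of 0.05. Myd88, the adaptor of interleukin-1 and Toll-like receptors, rose from 4.40 ± 0.172 to 6.44 ± 0.173 FPKM (log2 change of 0.46 with an SE of 0.07, adjusted p = 0.0092 by limma). Map3k14, the kinase NIK of the non-canonical pathway, rose from 2.02 ± 0.220 to 3.08 ± 0.222 FPKM (log2 change of 0.43 with an SE of 0.10, adjusted p = 0.033 by limma). Irak1, a kinase downstream of MyD88, dropped from 41.7 ± 1.56 to 28.5 ± 2.48 FPKM (log2 change of -0.54 with an SE of 0.09, adjusted p = 0.012 by limma). Myd88 and Irak1 stayed called in all 6 fits without a library. Map3k14 lost its call in all of those fits but the one without control library 3 (adjusted p up to 0.11). With libraries rescaled without the hormone genes Myd88 did not pass (adjusted p = 0.065 by limma).

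Of 12 tested receptors and ligands upstream of NF-kB, 4 rose and none fell. Il1b, a cytokine made chiefly by macrophages, was 2.98, 3.77 and 1.78 FPKM in control against 10.1, 7.60 and 5.53 FPKM in the knockout (log2 change of 1.19 with an SE of 0.25, adjusted p = 0.025 by limma). Tnf was 0.346, 1.54 and 0.623 FPKM in control against 2.49, 2.70 and 2.72 FPKM in the knockout (log2 change of 1.04 with an SE of 0.23, adjusted p = 0.029 by limma), and reached the minimum only through its knockout values. Cd14, a co-receptor for lipopolysaccharide, rose from 1.76 ± 0.0775 to 3.84 ± 0.855 FPKM (log2 change of 0.79 with an SE of 0.14, adjusted p = 0.015 by limma), and Tnfrsf12a, the receptor for TWEAK, from 4.28 ± 0.797 to 7.74 ± 2.01 FPKM (log2 change of 0.71 with an SE of 0.18, adjusted p = 0.044 by limma). The 2 most abundant receptors of the list, named after their values were seen, did not pass: Il1r1 was 86.9 ± 14.1 and 76.5 ± 4.36 FPKM, and Tnfrsf1a 14.2 ± 3.53 and 20.1 ± 2.28 FPKM. Without control library 4, or without knockout library 3, none of these 4 calls held. Over the 6 fits without a library, Il1b lost its call in 3 (adjusted p up to 0.078), also without knockout library 4. Tnf lost it in 4 (up to 0.09), also without knockout libraries 4 and 5, Cd14 in 3 (up to 0.058), also without knockout library 5, and Tnfrsf12a in all 6 (up to 0.09).

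Among 16 other tested targets of NF-kB, 6 rose and none fell. Ier3, an early-response survival gene, rose from 6.85 ± 2.01 to 25.3 ± 1.39 FPKM (log2 change of 1.77 with an SE of 0.17, adjusted p = 0.0025 by limma). Irf1, a transcription factor shared with the interferon response, rose from 13.1 ± 2.02 to 43.8 ± 9.17 FPKM (log2 change of 1.66 with an SE of 0.18, adjusted p = 0.0031 by limma). The complement gene C3 rose from 2.15 ± 0.423 to 6.81 ± 1.997 FPKM (log2 change of 1.28 with an SE of 0.21, adjusted p = 0.012 by limma). Icam1, an adhesion molecule for leukocytes, rose from 0.522 ± 0.152 to 1.72 ± 0.272 FPKM (log2 change of 0.84 with an SE of 0.15, adjusted p = 0.016 by limma) and reached the minimum only through its knockout values. So did Plau, another of the 6 and named after its values were seen, at 0.738 and 2.03 FPKM. Among the 10 that did not pass, and named after their values were seen, Sod2 was 8.02 ± 0.356 and 6.74 ± 0.0109 FPKM (adjusted p = 0.076 by limma), lower in every knockout library, and Gadd45b 34.9 ± 8.17 and 42.8 ± 2.97 FPKM (adjusted p = 0.26 by limma). Ier3, Irf1 and C3 stayed called in all 6 fits without a library. Icam1 lost its call without control library 4 (adjusted p = 0.054 by limma) and without knockout library 3 (0.059). Without knockout library 4 its mean was 0.947 FPKM, and it was not tested.

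Of the 33 other chemokine genes 8 were tested, 1 rose and none fell. Ccl4, an attractant of monocytes and T cells, was 3.06, 6.51 and 6.39 FPKM in control against 12.2, 11.9 and 9.66 FPKM in the knockout (log2 change of 1.003 with an SE of 0.24, adjusted p = 0.037 by limma). Its call was lost in every fit without a library except that without control library 1, with an adjusted p of up to 0.11. The other 25 were below the minimum, 3 of them with no read in any library. Of the 22 chemokine receptor genes 4 were tested and none passed. The 2 most abundant were Cxcr4, at 2.55 ± 0.257 and 2.24 ± 0.359 FPKM (adjusted p = 0.48 by limma), and Ackr3, at 1.64 ± 0.405 and 1.70 ± 0.484 FPKM (adjusted p = 0.94 by limma).

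Of 27 tested genes within 100 kb of one of the 10 genes, 2 rose, none fell and the rest did not pass, with a median log2 change of 0.13. Over all genes tested 6.97% rose and 7.55% fell, so the count of rises is near that background. Mfsd13a, 29031 bases from Nfkb2, rose from 8.94 ± 0.515 to 15.3 ± 1.64 FPKM (log2 change of 0.71 with an SE of 0.10, adjusted p = 0.0064 by limma), and kept its call without each library in turn. Gm10709, a processed pseudogene 96495 bases from Birc3, rose from 4.04 ± 0.379 to 6.62 ± 1.13 FPKM (log2 change of 0.59 with an SE of 0.12, adjusted p = 0.024 by limma). Its reads may be shared with its parent gene, and it lost its call without control library 1 or 4 or knockout library 4 or 5 (adjusted p up to 0.079). Mthfd2l, beside Cxcl1 and Cxcl2, was 1.65 ± 0.536 and 1.69 ± 0.108 FPKM (adjusted p = 0.89 by limma). The window around Tnfaip3 held no tested gene.

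**Figure D4:**
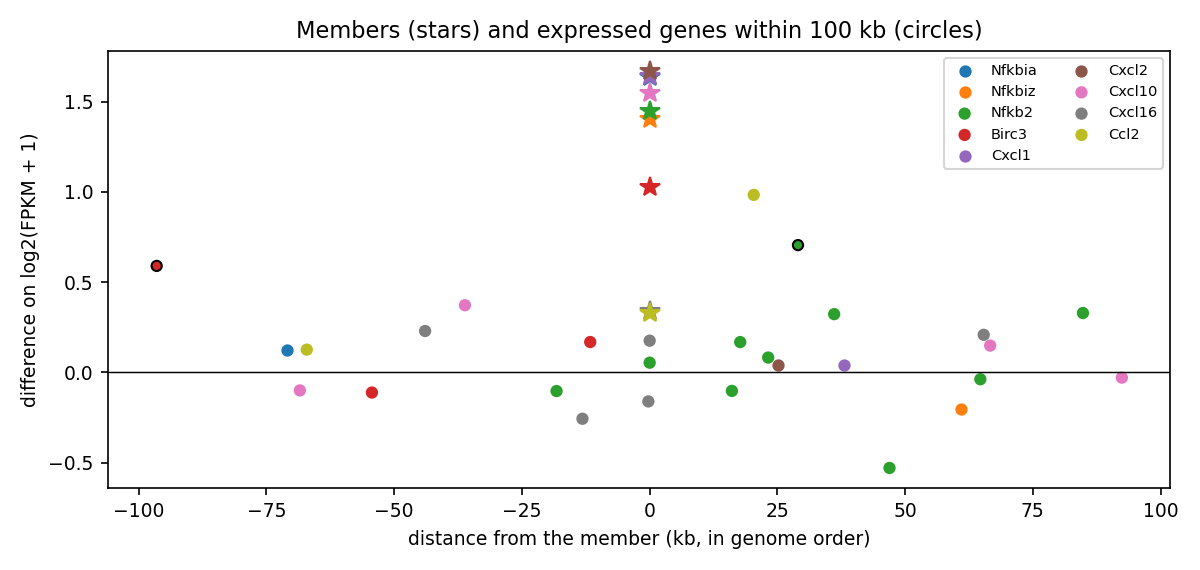
Difference on log2(FPKM + 1), knockout minus control, against distance in kb for tested genes within 100 kb (circles, coloured by the gene they lie near) and for the genes themselves (stars at 0); black outlines mark the 2 neighbours that passed the test. The circles have a median of 0.13, and Tnfaip3, with no tested neighbour, is not drawn.

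The genes whose values over the 6 libraries were most like the mean standardised profile of the 9 genes above 1 FPKM, by Pearson's r among 11430 protein-coding genes, were Ptges2, Il18bp, Inka2, Vrk1 and Rell1. For Ptges2, a prostaglandin E synthase, at 3.02 ± 0.324 and 7.79 ± 0.432 FPKM, r was 0.9998. For Il18bp, a secreted inhibitor of interleukin-18, at 3.46 ± 0.257 and 6.13 ± 0.271 FPKM, r was 0.999. As many as 340 genes had an r above 0.95, and the 6 points share the split into 2 groups.

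Sums of several cell type marker lists also differed between the groups. Within the knockout, the sum of the 10 genes was highest in library 4 (268 FPKM), as was that of the ductal markers. Nfkbia and Nfkbiz were the largest parts of the sum of the 10 genes. The sum of the 5 chemokine genes was instead highest in library 3, at 17.7 FPKM, with 16.9 and 14.6 FPKM in libraries 4 and 5. The macrophage sum was highest in library 3 and lowest in library 4, and the acinar sum was highest in library 5. The counts of markers below stand beside 6.97% of all genes tested that rose and 7.55% that fell. The sum of 14 macrophage markers was 96.1 to 116 FPKM in control and 120.1 to 149.5 FPKM in the knockout, a ratio of means of 1.31. C1qa was the largest part of that sum, at 57.96 and 64.7 FPKM, a ratio of 1.12. The other 9 tested macrophage markers had ratios from 1.27 (Lyz2) to 2.66 (Cd68). Of the 10 tested 5 rose and none fell: Cd68, Adgre1, C1qb, C1qc and Tyrobp. The sum of 11 acinar markers was 3517 to 8723 FPKM in control and 10489.6 to 32334 FPKM in the knockout, without overlap, though none of 10 tested passed. The sum of 9 ductal markers was 201 to 244 FPKM in control and 443 to 590.1 FPKM in the knockout, and 2 of 7 tested rose, Krt8 and Krt18. The 10 beta cell markers, dominant in every library, summed to 166105 to 265527 FPKM in control and 108887 to 128742 FPKM in the knockout, and 3 fell and none rose. Ins1, Ins2 and Iapp, the largest parts of that sum, did not pass (adjusted p = 0.44, 0.38 and 0.059 by limma). Of the 10 markers 6 were lower in every knockout library. Mafa was higher in every one, at 228 ± 37.1 and 349 ± 84.1 FPKM (adjusted p = 0.09 by limma).

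A list of 12 immediate early and heat shock genes, which tissue handling can induce, summed to 726 to 2008 FPKM in control and 4524 to 5745 FPKM in the knockout, and 9 rose and none fell. Control library 1 was the lowest for this sum, as it was for 7 of the 10 NF-kB and chemokine genes. Knockout library 4 was the highest for it, as for the sum of the 10 genes, but library 5 lay close, at 5677 against 5745 FPKM. The other sums overlapped between the groups. Endothelial markers summed to 115 to 141 FPKM in control and 116 to 151 FPKM in the knockout (0 of 9 tested passed), and stellate cell and fibroblast markers to 37.01 to 40.1 FPKM in control and 35.8 to 53.6 FPKM in the knockout (0 of 8). Lymphocyte and neutrophil markers summed to 8.86 to 16.7 FPKM in control and 8.84 to 17.4 FPKM in the knockout (0 of 3), and alpha, delta and PP cell markers to 29004 to 34025 FPKM in control and 33287 to 36483 FPKM in the knockout (1 of 6 rose). No marker was at 0 in every library. The part of these cells and of early gene induction in the differences of the 10 genes was not tested.

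**Figure D5:**
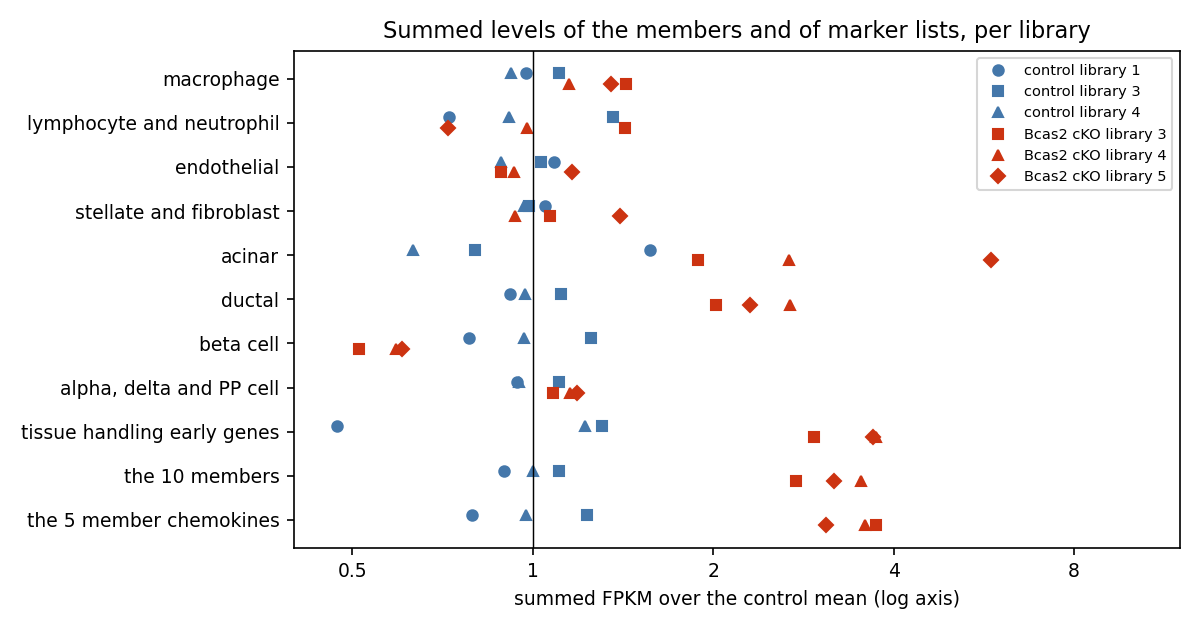
Summed FPKM of each marker list, of the 10 genes and of the 5 chemokine genes in each library, divided by the control mean, on a log axis, with control in blue, knockout in red and a symbol for each library number. The 10 genes and the acinar, ductal, macrophage and early gene lists lie higher in every knockout library, the beta cell list lies lower, and the other 4 lists overlap.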

How the data were processed

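The deposited table gives FPKM per the file headers, with 1 column per library for 54532 genes. Per the submitters' processing notes the build was GRCm38 (mm10); the sources used here name no aligner, counter, annotation version or strand setting. Multiplying FPKM by gene length recovered whole reads for 100% of values (within 0.01 of a read). Median-of-ratios scaling left the values unchanged, as they already carried it, so it is no separate check. All 13723 genes averaging 1 FPKM or more were fitted on log2(FPKM + 1) with limma 3.58.1 (lmFit, eBayes with trend) in R 4.3.3, with Benjamini-Hochberg adjustment and a threshold of 0.05. The code was tested on simulated data. SEs of the 10 genes are plain SEs of the group difference. The 10 genes and the lists were chosen with earlier results of these data known. Besides the 10, the rule named up to 4 called genes of largest change per list, otherwise the 2 most abundant, called genes within 100 kb, and the 5 closest profiles. Promoters are from RefSeq (GRCm38.p6). Alternatives were a pseudocount of 0.1, any mean above 0, a mean of 5 FPKM or more, 2 scalings, eBayes without trend, voom on recovered reads, leaving out each library, and a replicate block. Python 3.11.15, numpy 2.4.6, pandas 2.3.3 and matplotlib 3.10.9 were used.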

Additional observations from a re-analysis of the deposited data

How the results depend on the processing

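The median log2 difference of the 10 genes (1.50) stayed between 1.40 and 1.65 over the settings run, and 9 genes had no overlap, or 10 without control library 3. Weakly expressed genes moved most: Cxcl1 ran from 1.58 to 2.81 and Ccl2 from 0.28 to 1.04, highest with voom. Of all genes 957 rose and 1036 fell. With any mean above 0 the counts were 628 and 516, and with the replicate block 352 and 186. Rescaled without the hormone genes they were 608 and 1249, 32.7% rises among calls against 48.0%, and all genes had a median log2 change of -0.12 against -0.03. Without 1 library, rises ran from 466 to 956 and falls from 391 to 994. Among pathway genes 19 rose and 2 fell. With a mean of at least 5 FPKM, which tests fewer genes, 10 rose, with any mean above 0 1 fell, and with the replicate block 7 rose and 0 fell. Without 1 library 9 to 18 rose and 1 to 3 fell. Of the neighbours 2 rose, or 3 with a mean of at least 5 FPKM. The count of neighbours that rose was 1 with any mean above 0, 0 with the block and 1 to 2 without 1 library. Ackr3 (0.03) turned to -0.048 rescaled without the hormone genes and to -0.13 with the replicate block, and ran from -0.12 to 0.14 without 1 library. The cause of these shifts was not tested. The block used numbers 3 and 4, which both groups share. Control library 1 and knockout library 5 had no partner, so the group difference came from numbers 3 and 4 alone. That fit had less power to call genes than the main fit. Deviations of same-numbered libraries correlated at -0.15 and 0.045, where all pairs across the groups ran from -0.15 to 0.12. So few values cannot show whether libraries of 1 number share a litter or a batch, and the labels do not say. Depth limits Ccl2, with 4 to 15 reads per library.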

Other observations

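Some inflammatory genes were below the mean of 1 FPKM and were looked at after their values were seen. With any mean above 0 admitted, 4 of the 72 pathway genes below the minimum passed limma's test over all genes, and all 4 were higher in the knockout. At that setting 1.91% of 32845 genes were higher and 1.57% lower. Il6, a cytokine induced by NF-kB, had 2, 5 and 2 reads in control and 41, 61 and 46 in the knockout (log2 change 0.98, adjusted p = 0.019 by limma). Cd40, a receptor of the TNF receptor family, had 17, 9 and 11 reads against 67, 62 and 52 (0.69, adjusted p = 0.029). Sele, the endothelial adhesion molecule E-selectin, had 6, 2 and 4 reads against 43, 40 and 22 (0.61, adjusted p = 0.046). Ccr7, a lymphoid homing receptor, had 1, 1 and 1 reads against 7, 6 and 9 (0.23, adjusted p = 0.046).

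Cxcl13, the attractant of B cells, went the other way. It had 16, 32 and 30 reads in control and 4, 3 and 6 in the knockout, with no overlap, and did not pass (log2 change -1.05, adjusted p = 0.056 by limma with any mean above 0).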
